A study of Rattus norvegicus with 6 samples.

Results

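Interleukin-1 is made as 2 ligands, Il1a and Il1b, which signal through the receptor Il1r1 and are held in check by the antagonist Il1rn and the decoy receptor Il1r2, and it acts together with the cytokines Tnf and Il6 and the NF-kappa-B inhibitor Nfkbia. These 8 genes were measured in brain capillaries of stroke-prone spontaneously hypertensive rats (SHRSP), a strain that inherits both hypertension and a tendency to stroke. The members were all probe sets that the annotation of the Affymetrix rat array assigns to these genes, which gave 17 probe sets of 8799 in all, for 8 of 4736 named genes. Il1r1 had 4 probe sets, Il1a and Il1b had 3 each, Il6 and Nfkbia had 2 each, and Il1rn, Il1r2 and Tnf had 1 each. None of the 17 carried a second gene symbol (0 with several symbols).

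The rats were 6 weeks old. Of 6 arrays, 2 were controls, 2 were from rats given the ACE inhibitor lisinopril (ACEI, 6 mg/kg per day), which lowers the formation of angiotensin II, and 2 from rats given the angiotensin receptor blocker olmesartan (ARB, 4 mg/kg per day by mouth). The labels also name 1% NaCl, and they do not settle whether it went to all groups or only to the controls. They also do not tell whether an array holds RNA of 1 animal or of several, so p-values measure the spread between arrays, which may be technical. RAS blockade below is the mean of the ACEI and ARB groups, set against the controls. All comparisons with control share the same 2 control arrays.

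Interleukin-1 alpha and beta bind the same signalling receptor, Il1r1, which with its partner Il1rap activates NF-kappa-B through adaptor proteins and kinases. Il1rn occupies that receptor without signalling, and Il1r2 is a decoy that binds the ligand but lacks the signalling domain. NF-kappa-B is held in the cytoplasm by Nfkbia and, once free, induces cytokine, chemokine and adhesion genes as well as Nfkbia itself, which closes a negative feedback loop. In the brain, interleukin-1 is known as a product of microglia, macrophages and infiltrating leukocytes, and endothelium is one of its responding cell types.

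The arrays were not equal in quality, and the part of this in the members' values was not tested. The deposited values are intensities on a linear scale, and the median of an array was 486 or 494 in the ARB group and between 244.9 and 353 in the other groups. Control 2 had a Gapdh signal 7.31 times as high at the 3' end as at the 5' end, a sign of broken RNA or short copies, while this ratio lay between 0.93 and 1.59 elsewhere. The same ratio for actin was 3.15 on control 2, 2.05 on ARB 1 and 1.65 on ARB 2. On the remaining arrays it lay between 1.04 and 1.35. A set of 15 control probe sets for bacterial transcripts, used here as a gauge of low signal, had a 90th percentile of 369.8 and 238 in the ARB group, 149 and 30.9 in the ACEI group, and 91.7 and 39.7 in the control group. The sources used here do not state whether such RNA was added. Control 1 and ACEI 1 were run on 1 day, and the remaining 4 arrays on a later day with another chip lot. The run records give control 1, ACEI 1 and ARB 1 the same fluidics protocol, and control 2, ACEI 2 and ARB 2 another.

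The label of brain capillaries was checked against endothelial markers. Of 17 markers 13 were measured and all 13 lay above the filter on low values. Their intensities summed to 75841 and 151298 on the controls, to 79316 and 83340.0 with ACEI, and to 67140 and 77576 with ARB, and no measured marker was at 0 on any array (0 markers). On control 2 the sum was made up mostly of Slc2a1 (66763) and Slco1a4 (79016). Both and Kdr were higher on control 2 than on control 1, and the other markers were lower. Pecam1 had 5538 and 193.8 on control 1 and 2, Flt1 3477 and 335, and Vwf 596 and 49.2. The sum thus does not rank the arrays by their endothelial content. Values are given first as intensities in the order of control 1 and 2, ACEI 1 and 2, and ARB 1 and 2. Differences are on the scale of log2 of the intensity plus 90, which understates the change of dim genes, and are given ± the SE of the limma model. The adjusted p is Benjamini-Hochberg over the 5244 probe sets tested. No probe set passed 0.05 in any of the 4 comparisons, so the unadjusted p is given for some of the smallest values below.

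Of the 17 member probe sets, 9 passed the filter and 8 did not. The 9 were 2 of Il1a, all 3 of Il1b, the 1 of Il1r2, the 1 of Tnf and both of Nfkbia. All probe sets of Il1rn, Il1r1 and Il6 and 1 of Il1a lay below it. The dimmest member inside the filter was Tnf, with a mean log2 value equivalent to an intensity of 304, and the brightest outside it was an Il6 probe set, at 203.

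**Figure D1:**
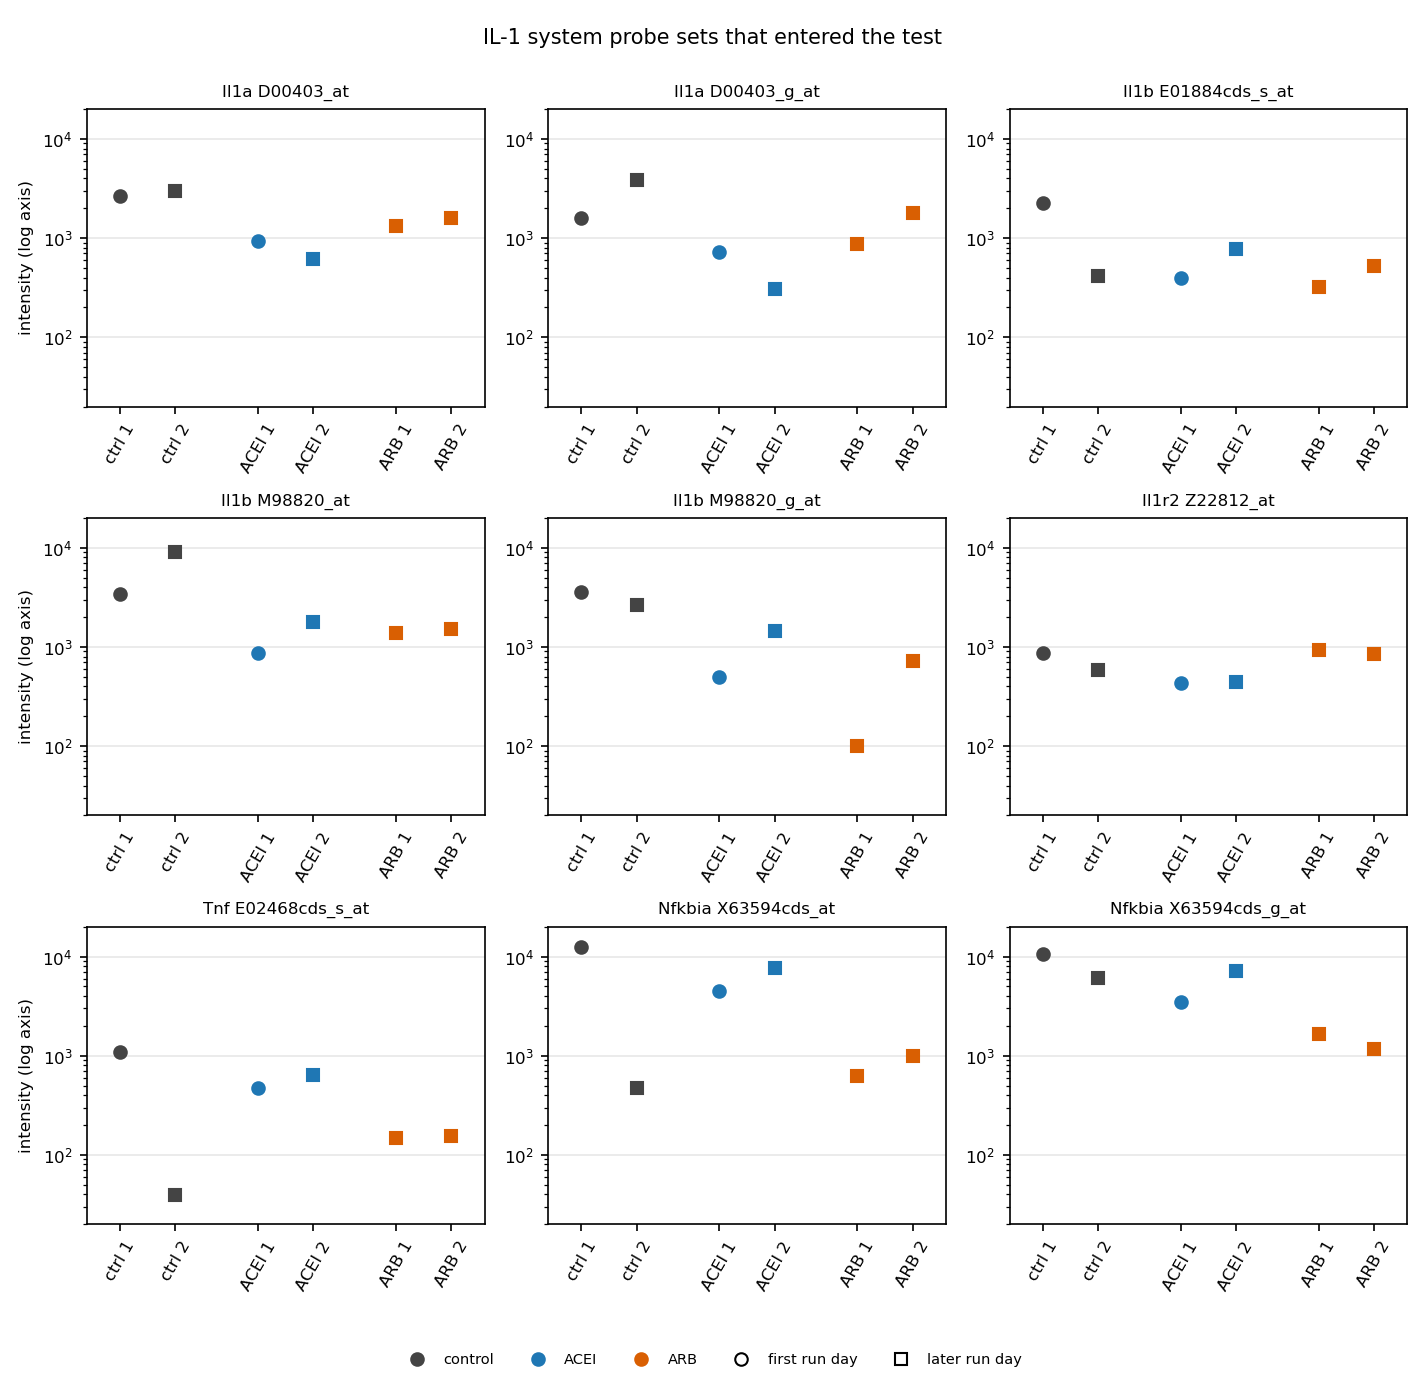
Intensity (log axis) on each array for the 9 probe sets that entered the test, with colour for the group and shape for the run day. Il1a D00403_at and both M98820 probe sets of Il1b lie lower on all 4 treated arrays than on both controls, and the controls lie far apart for Tnf and Nfkbia X63594cds_at.

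Il1a, the ligand that is active already in its precursor form and is released by injured cells, was lower on the treated arrays in its bright probe sets. D00403_at had intensities of 2650.1 and 2968 on the controls, 939.5 and 619 with ACEI, and 1314 and 1599 with ARB. The controls stood close together and above all 4 treated arrays, and ACEI stood below ARB without overlap. The log2 difference was -1.76 ± 0.46 with ACEI (3.39-fold lower), -0.91 ± 0.46 with ARB (1.88-fold lower) and -1.34 ± 0.40 with RAS blockade.

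D00403_g_at, designed from the same database entry and so no independent measurement, had 1596 and 3824 on the controls, 717 and 304 on ACEI, and 878 and 1807 on ARB. Here ACEI again lay below both controls, while ARB 2 lay above control 1. Its difference was -2.19 ± 0.63 with ACEI, -0.92 ± 0.63 with ARB and -1.56 ± 0.54 with RAS blockade. Without control 2 the values with ARB and RAS blockade were -0.32 and -0.95, and without control 1 they were -1.53 and -2.16. In limma the adjusted p of the pair was 0.992 with ACEI, 0.863 with RAS blockade, and 0.334 and 0.462 with ARB, so neither passed. At an unadjusted p these were 0.00446 and 0.0075 with ACEI.

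The third Il1a probe set, E05489cds_s_at, lay below the filter and showed another order. It had 305 and 19.4 on the controls, 172 and 100 on ACEI, and 14.1 and 274 on ARB. Within both the control and the ARB pair the arrays differed by 15.7-fold and 19.5-fold, and every group overlapped the others.

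Il1b, the ligand that needs cleavage by caspase-1 before it is active, had the largest RAS blockade difference among the 9 tested member probe sets. M98820_at had 3427 and 9034 on the controls, 870.1 and 1798 on ACEI, and 1368 and 1501 on ARB. Both controls lay above all 4 treated arrays, and ACEI and ARB overlapped. The difference was -2.07 ± 0.60 with ACEI (4.21-fold lower), -1.90 ± 0.60 with ARB (3.72-fold lower) and -1.98 ± 0.52 with RAS blockade, where the size without control 2 was -1.30 and without control 1 -2.67.

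M98820_g_at, from the same entry, had 3604 and 2624 on the controls, 492 and 1444 on ACEI, and 101 and 713 on ARB. All 4 treated arrays again lay below both controls, with ARB 1 at a level under the 90th percentile of the bacterial controls on that array. Its difference was -1.75 ± 0.75 with ACEI (3.35-fold lower), -3.01 ± 0.75 with ARB (8.08-fold lower) and -2.38 ± 0.65 with RAS blockade, the largest of the members. The ARB value was -1.98 without ARB 1 and -4.05 without ARB 2, so its fold rests on these arrays.

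The remaining Il1b probe set did not separate the groups. E01884cds_s_at had 2270.2 and 411 on the controls, 395 and 770.2 on ACEI, and 320.2 and 525 on ARB, so that only control 1 stood high. On ARB 1 this probe set lay under the 90th percentile of the bacterial controls. Its difference of -0.93 ± 0.64 with RAS blockade became 0.19 without control 1 and -2.05 without control 2. For the 3 Il1b probe sets the limma adjusted p was 0.863 with RAS blockade and 0.992 with ACEI, and lay between 0.199 and 0.449 with ARB. At an unadjusted p M98820_at reached 0.00444 and M98820_g_at 0.00589 with RAS blockade.

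Within run days, where each value rests on 1 control array and has no test, the 2 M98820 probe sets and the 2 D00403 probe sets kept their sign. ACEI minus control for Il1b M98820_at was -1.87 on the first day and -2.27 on the later day, and ARB minus control, measured only on the later day, was -2.58. For M98820_g_at these values were -2.67, -0.82 and -2.79. For Il1a D00403_at they were -1.41, -2.11 and -0.99, and for D00403_g_at -1.06, -3.31 and -1.53. For Il1b E01884cds_s_at they were -2.28, 0.78 and 0.00, so its sign depended on the day.

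**Figure D2:**
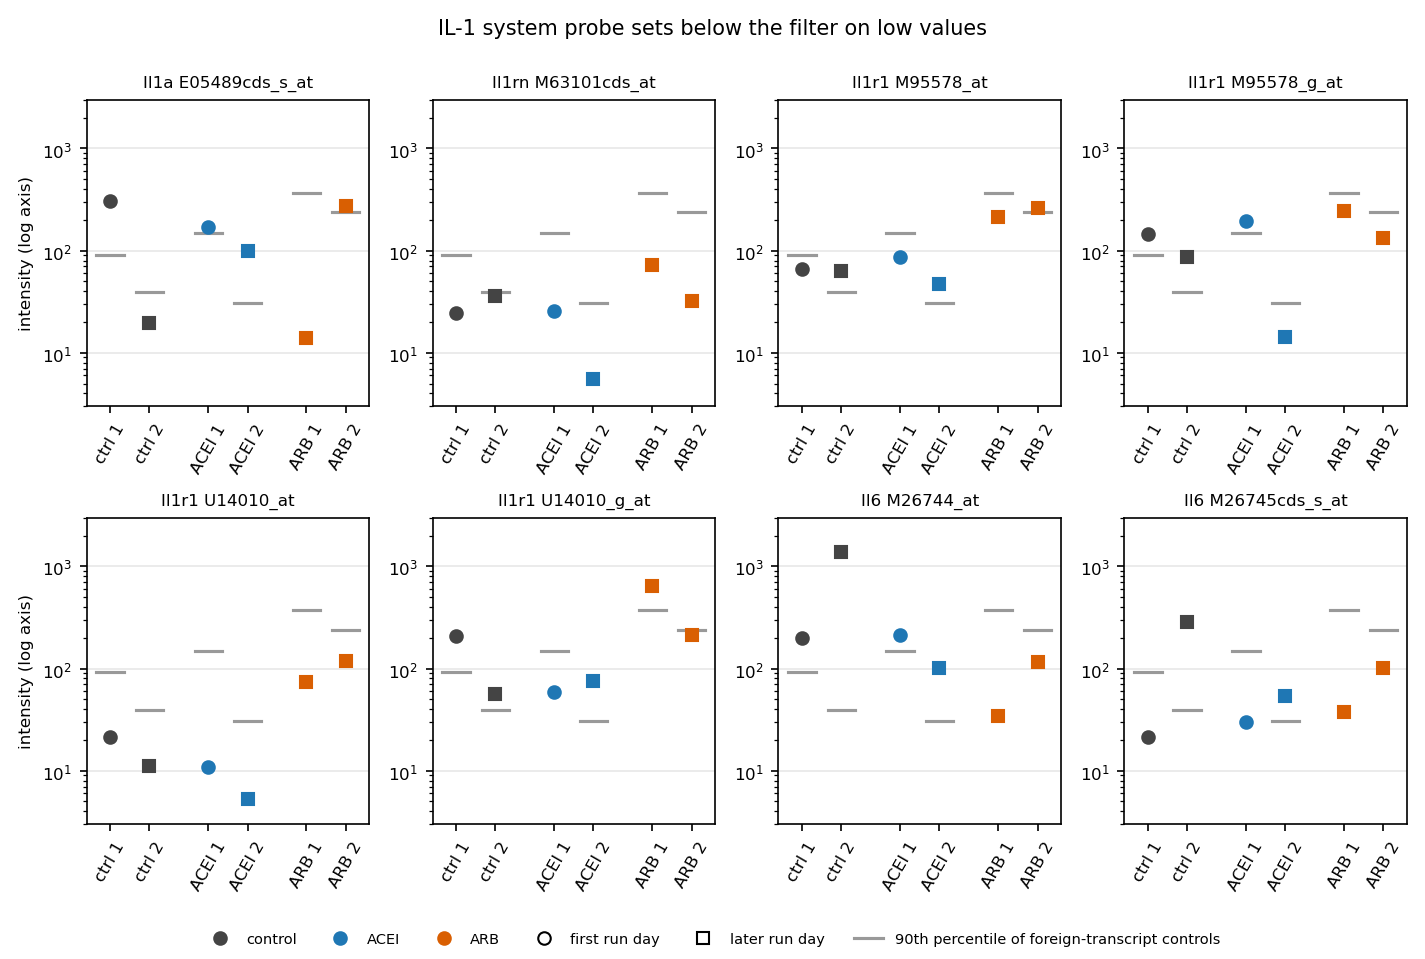
Intensity (log axis) on each array for the 8 probe sets below the filter, with grey bars at the 90th percentile of the 15 bacterial control probe sets of that array. Il1rn and Il1r1 U14010_at lie below the bar on all 6 arrays, and Il6 stands out on control 2 at 1386 and 284.

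The antagonist Il1rn was at the level of the controls for bacterial transcripts. Its probe set had 24.3 and 36.1 on the control arrays, 25.9 and 5.5 on ACEI, and 72.5 and 32.1 on ARB, and lay at or below their 90th percentile on 6 of 6 arrays. No difference of Il1rn was measurable at this signal, and its level relative to the ligands cannot be read from probe sets of different genes.

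The signalling receptor Il1r1 was also dim on all 4 of its probe sets. M95578_at had 66.3 and 62.5 on the controls, 86.2 and 47.0 on ACEI, and 211 and 264 on ARB. U14010_at had 21.2 and 11.2 on the controls, 10.8 and 5.3 on ACEI, and 73.6 and 119 on ARB. U14010_g_at had 209 and 56.9, 59.6 and 76.0, and 636 and 212 in the same order, and M95578_g_at had 146 and 87.0, 196 and 14.2, and 243 and 134. On the first 3 of these both ARB arrays lay above both controls, by 1.08, 0.80 and 1.16 on the log2 scale. Over all 8740 probe sets without the filter, both ARB arrays lay above both controls for 43.9%, so this order was common. The 90th percentile of the bacterial controls was likewise higher on the ARB arrays, and its part in the result was not tested. After quantile normalization the 3 differences were 0.44, 0.28 and 0.61, and with all probe sets fitted their adjusted p in limma lay between 0.180 and 0.282.

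Il1r2, the decoy receptor, was brighter, with wide intervals for its difference from control. It had 859.7 and 591 on the controls, 433 and 438 on ACEI, and 923 and 849.6 on ARB. ACEI lay below both controls, and ARB overlapped them. The differences were -0.61 ± 0.45 with ACEI (95% interval -1.64 to 0.41; adjusted p = 0.992 in limma) and 0.28 ± 0.45 with ARB (-0.75 to 1.30; adjusted p = 0.770). With ARB the sign turned to -0.12 after quantile and -0.07 after cyclic loess normalization. The pairs of treated arrays stood close together, at 1.01-fold for ACEI and 1.09-fold for ARB, and both ARB arrays lay above both ACEI arrays, by 0.89 ± 0.45 (-0.13 to 1.92; adjusted p = 0.278).

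Tnf, the cytokine that activates NF-kappa-B through receptors of its own, could not be compared with control because the controls disagreed. It had 1099.7 and 39.2 on the controls, a 28.1-fold gap, against 472 and 642 on ACEI and 149 and 156 on ARB. Every treated array lay between the controls. The difference with RAS blockade was 0.01 ± 0.78, and was 1.61 without control 1 and -1.59 without control 2. Between the drugs, where no control enters the means, both ARB arrays lay below both ACEI arrays, by -1.40 ± 0.89 (95% interval -3.45 to 0.64; adjusted p = 0.384 in limma). On both ARB arrays and on control 2, Tnf lay at or below the 90th percentile of the bacterial controls (3 of 6 arrays).

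Il6, a cytokine that interleukin-1 and NF-kappa-B induce, was high on control 2 alone. M26744_at had 199 and 1386 on the controls, 212 and 101 on ACEI, and 34.2 and 117 on ARB. M26745cds_s_at had 21.5 and 284 on the controls, 30.1 and 53.8 on ACEI, and 37.8 and 100.5 on ARB. Both probe sets thus placed control 2 highest, while control 1 lay among the treated arrays for the first and below all of them for the second. For M26744_at the difference with RAS blockade was -1.73 with both controls, -2.91 without control 1 and -0.56 without control 2, and for M26745cds_s_at it was -0.51, -1.38 and 0.36. With all probe sets fitted the adjusted p in limma was 0.735 and 0.811.

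Nfkbia, the inhibitor that NF-kappa-B induces, was lower with ARB in its first probe set, and its 2 probe sets disagreed on control 2. X63594cds_g_at had 10611 and 6075 on the controls, 3476 and 7094 on ACEI, and 1672 and 1164 on ARB. Both ARB arrays lay below all 4 other arrays, while ACEI 2 lay between the controls. The difference was -2.45 ± 0.55 with ARB (5.46-fold lower), -0.68 ± 0.55 with ACEI and -1.57 ± 0.47 with RAS blockade. The adjusted p in limma was 0.199, 0.992 and 0.863, and the unadjusted p with ARB was 0.00178.

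X63594cds_at had 12353 and 468 on the controls, 4455 and 7632 on ACEI, and 628 and 987 on ARB. The gap between the controls was 26.4-fold, and ARB lay above control 2. The difference with ARB was -1.58 ± 1.19, and it was 0.66 without control 1 and -3.82 without control 2. Within the later run day ARB minus control was -2.05 for X63594cds_g_at and 0.66 for X63594cds_at. ACEI minus control was -1.59 and -1.45 on the first day, and 0.22 and 3.79 on the later one, for the 2 probe sets in the same order. Tnf and Il1b E01884cds_s_at were also far lower on control 2 than on control 1, by 28.1-fold and 5.52-fold, while the M98820_at probe set of Il1b was higher there by 2.64-fold. The ratio of the Gapdh probe sets stood apart on that same array, and its part in these gaps was not tested.

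**Figure D3:**
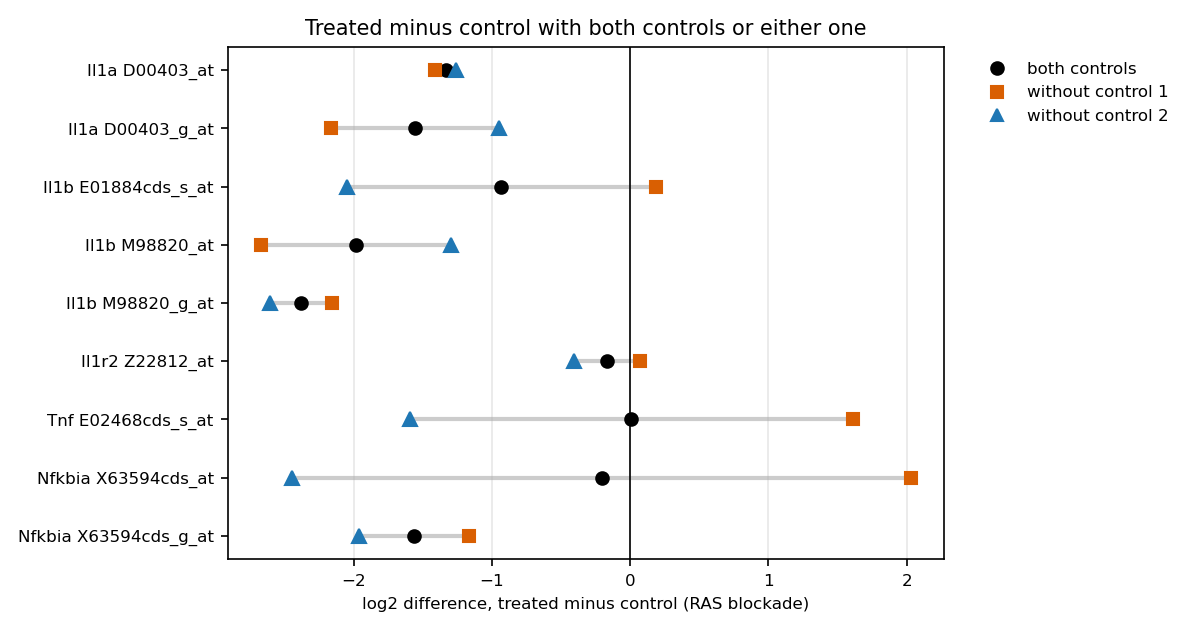
Log2 difference between treated and control arrays (RAS blockade) for the 9 tested probe sets with both controls, without control 1 and without control 2. The Nfkbia X63594cds_at value runs from -2.45 to 2.03 and the Tnf value from -1.59 to 1.61, while Il1a D00403_at stays between -1.42 and -1.26.

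As NF-kappa-B induces cytokine genes and Nfkbia, the promoters of the members were searched for its binding motif. The table of RefSeq promoters used here gave the 300 bases around the start of 7 of the 8 genes (build GRCr8, 250 bases before the start and 50 after it). Il1r2 was not matched. A broad motif, GGG and CC with any 5 bases between them, was searched on both strands. It was found in 5 of the 7, and in 47.3% of all 33465 promoters of that length. The narrower NF-kappa-B consensus, each match of which is also a match of the broad motif, was found in 3 of the 7 (Il1r1, Il6 and Nfkbia) and in 4.18% of all. The promoters of Il1b, Nfkbia and Il6 are shown 5′ to 3′ because the first belongs to the ligand with the largest difference and the others hold the narrower motif, with matches of the broad motif in capitals.
Il1b, GRCr8 chr3:137036532-137036831, minus strand: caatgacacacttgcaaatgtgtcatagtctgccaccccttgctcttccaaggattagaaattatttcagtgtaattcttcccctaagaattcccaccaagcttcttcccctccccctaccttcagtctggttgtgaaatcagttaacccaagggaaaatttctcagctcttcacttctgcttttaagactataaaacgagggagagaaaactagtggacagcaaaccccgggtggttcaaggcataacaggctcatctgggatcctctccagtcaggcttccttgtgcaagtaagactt
Nfkbia, GRCr8 chr6:78597023-78597322, minus strand: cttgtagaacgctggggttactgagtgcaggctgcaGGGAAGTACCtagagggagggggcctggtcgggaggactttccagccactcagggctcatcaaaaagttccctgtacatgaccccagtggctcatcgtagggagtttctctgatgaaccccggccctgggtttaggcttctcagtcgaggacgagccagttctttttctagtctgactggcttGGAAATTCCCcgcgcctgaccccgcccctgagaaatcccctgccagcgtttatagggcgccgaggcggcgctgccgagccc
Il6, GRCr8 chr4:5894526-5894825, minus strand: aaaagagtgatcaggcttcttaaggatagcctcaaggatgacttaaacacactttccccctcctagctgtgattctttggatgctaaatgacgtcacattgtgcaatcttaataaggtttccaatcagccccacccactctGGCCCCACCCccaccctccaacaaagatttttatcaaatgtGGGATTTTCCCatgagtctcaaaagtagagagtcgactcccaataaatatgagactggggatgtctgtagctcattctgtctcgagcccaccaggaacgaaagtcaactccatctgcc
Il1b had no match in this window, nor had Il1a, which says only that these letters are not there. The consensus match of Nfkbia lies on the strand opposite to the shown sequence, where it stands as GGAAATTCCC from -31 relative to the start. That of Il6, GGGATTTTCC, lies on the shown strand and begins at -68. In Il6 the latter overlaps a match of the broad motif on the other strand. The letters TATAAA were found in Il1b on the shown strand at -60, and on either strand in 5 of the 7 promoters against 14.2% of all.

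Counted over the 9 tested member probe sets, the RAS blockade difference was negative for 8, with a median of -1.34, against 40.4% of all 5244 with a negative difference and a median of 0.13. In limma 0 of the 9 passed an adjusted p of 0.05, as did 0% of all probe sets, where 266 (5.07%) had an unadjusted p under 0.05. At an unadjusted p under 0.05, 5 were lower, namely both D00403 probe sets of Il1a, both M98820 probe sets of Il1b and X63594cds_g_at of Nfkbia, and 0 were higher. Of all probe sets 2.02% were lower and 3.05% higher by this measure. These 5 belong to 3 genes, and each pair shares its source sequence. For 3 of the 9 all treated arrays lay below both controls, against 3.72% of all, and for 0 above, against 4.63%. Without control 2 the difference was negative for all 9 with a median of -1.59, and without control 1 for 5 of the 9 with a median of -1.17.

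With ACEI 7 of the 9 were negative, against 53.1% of all, with a median of -0.75 against -0.04. At an unadjusted p under 0.05, 4 were lower and 0 higher, against 1.39% and 1.2% of all. In limma 0 passed the adjustment (0% of all), and 136 of all (2.59%) had an unadjusted p under 0.05. Both ACEI arrays lay below both controls for 5 of the 9, against 11.9% of all, and above them for 0, against 11.6%. Without control 1, 6 of the 9 were negative with a median of -0.38, and without control 2 all 9 with a median of -1.39.

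With ARB 8 of the 9 were negative, against 41.9% of all, with a median of -1.11 against 0.18. At an unadjusted p under 0.05, 3 were lower and 0 higher, against 4.69% and 12.6% of all. In limma 0 passed the adjustment (0% of all), and 905 of all (17.3%) had an unadjusted p under 0.05. Both ARB arrays lay below both controls for 4 of the 9, against 16.8% of all, and above them for 0, against 33.4%. Without control 1, 5 of the 9 were negative with a median of -0.99, and without control 2, 8 with a median of -2.23.

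**Figure D4:**
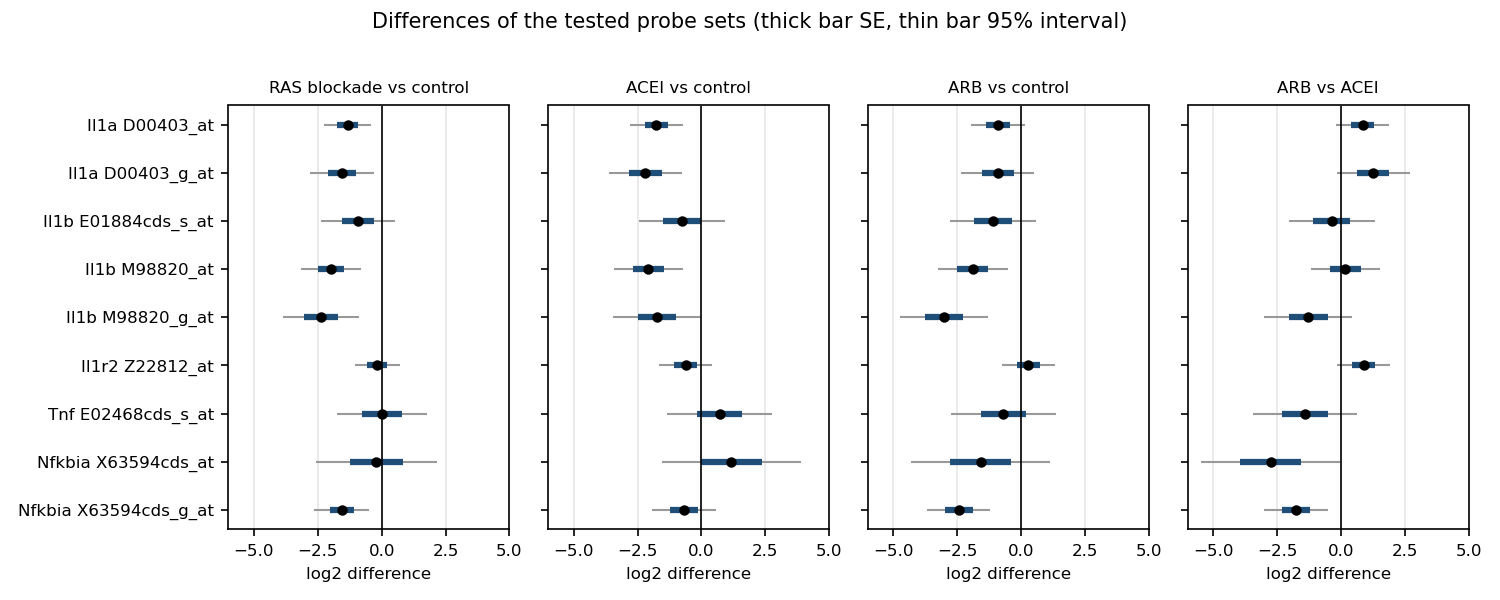
Log2 difference of the 9 tested probe sets in each comparison, with a thick bar for the SE and a thin bar for the 95% interval. Against control, Il1a has larger negative values with ACEI (-1.76 and -2.19) than with ARB (-0.91 and -0.92), and Nfkbia X63594cds_g_at a larger one with ARB (-2.45) than with ACEI (-0.68).

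The 2 drugs were then compared with each other. In limma 0 of the 9 passed the adjustment over all probe sets (0% of all), and 1171 of all (22.3%) had an unadjusted p under 0.05. By that measure 2 of the 9 were lower with ARB and 0 higher, against 6.71% and 15.6% of all, and 5 of the 9 were negative, against 43.5%. The 2 were probe sets of Nfkbia. X63594cds_g_at was lower with ARB than with ACEI by -1.77 ± 0.55 (3.41-fold, 95% interval -3.02 to -0.52; adjusted p = 0.143) and X63594cds_at by -2.75 ± 1.19 (6.74-fold, -5.48 to -0.03; adjusted p = 0.221). With only the ACEI and ARB arrays fitted in limma, the adjusted p was 0.0259 for X63594cds_at and 0.0684 for X63594cds_g_at, and that fit called 305 (5.82%) of all probe sets. With array weights it was 0.053 and 0.0458 in that order, and 518 (9.88%) of all were called. With run day fitted as a block, both differences were -1.82, with an adjusted p of 0.420 and 0.165. Within the later run day the ARB arrays lay below ACEI 2 by -2.27 for X63594cds_g_at and -3.13 for X63594cds_at.

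Il1a went the other way in its bright probe sets. It was higher with ARB than with ACEI by 0.85 ± 0.46 (95% interval -0.20 to 1.90; adjusted p = 0.306 in limma) and 1.26 ± 0.63 (-0.17 to 2.70; adjusted p = 0.271), and the groups did not overlap in either. Groups did not overlap for 3 of the 9 with ARB higher and 3 with ARB lower, against 37.1% and 25.3% of all. For Il1b the drugs were not told apart. M98820_at differed by 0.18 ± 0.60 (-1.19 to 1.54), M98820_g_at by -1.27 ± 0.75 (-2.99 to 0.45) and E01884cds_s_at by -0.36 ± 0.74 (-2.04 to 1.32), so that differences of over 2-fold in either direction lay inside 2 of the 3 intervals.

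Other genes of the pathway were taken at 1 probe set per gene, that with the highest mean log2 value. Of 25 genes of the interleukin-1 and Toll pathway 7 were measured and 5 tested. With RAS blockade 3 of the 5 were negative (median -0.43, against 0.10 for all 3186 genes tested), and 0 had an unadjusted p under 0.05 in limma. Of all genes tested, 2.32% were lower and 2.79% higher at that threshold. Cd14, a co-receptor of bacterial lipopolysaccharide on macrophages, was at -0.79 ± 0.44, the interleukin-1 family cytokine Il18 at -0.54 ± 0.44, and Casp1, the protease that activates Il1b and Il18, at -0.43 ± 0.51. The other probe sets were at -0.11 for Cd14, 0.16 for Il18, and -0.84 and -0.64 for Casp1. Il1rap, the partner of Il1r1, had 203 and 318 on the controls, 134 and 159 on ACEI, and 915 and 758 on ARB. It was higher with ARB than with ACEI by 1.97 ± 0.45 (adjusted p = 0.127), but its other probe set was at -0.26.

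Of 21 subunits, kinases and inhibitors of NF-kappa-B, 3 were measured and all 3 were tested. Nfkb1, which encodes the p50 subunit, was at -0.01 ± 0.39 with RAS blockade, the adaptor Traf2 at -0.28 ± 0.41 and the kinase Map3k8 at -0.07 ± 0.47. Of 29 genes of Tnf and Il6 receptors and their signalling, 20 were measured and 11 tested, with 4 negative and 7 positive, a median of 0.49 and 0 at an unadjusted p under 0.05 in limma. The largest were Tgfb1 at 1.57 ± 0.81, the protease Adam17, which sheds Tnf from the cell surface, at 1.02 ± 0.77, the kinase Jak1 at 0.91 ± 0.61 and the receptor Cntfr at 0.58 ± 0.44. Without control 2 the first 3 of these were at -0.09, -0.37 and -0.20.

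Of 36 genes known to be induced by NF-kappa-B, 28 were measured and 23 tested. With RAS blockade 14 of the 23 were negative (60.9%, against 43.3% of all genes), the median was -0.16, and 6 were lower at an unadjusted p under 0.05, against 2.32% of all, with 0 higher and 0 past the adjustment in limma. The largest were the monocyte chemokine Ccl2 at -2.06 ± 0.73, the neutrophil chemokine Cxcl2 at -1.53 ± 0.39, the chemokine Ccl4 at -1.43 ± 0.45 and the adhesion molecule Icam1 at -1.37 ± 0.40. The remaining 2 of the 6, named after their values were seen, were Cxcl10 at -1.29 and Ccl3 at -1.10. Ccl2 was at -0.97 without control 2. A second tested probe set was at -0.63 for Ccl2 and at -0.76 for Icam1. With ACEI 3 of the 23 were lower at an unadjusted p under 0.05 (1.63% of all) and with ARB 7 (4.58% of all).

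Markers of other cell types also differed between the treated and control arrays. Of 12 neutrophil markers 5 were measured and 3 tested, and all 3 were lower with RAS blockade at an unadjusted p under 0.05, against 2.32% of all genes. Their summed intensity was 8415 and 8955 on the controls, 2452 and 4899.8 on ACEI, and 2169 and 1777 on ARB. Of 19 markers of microglia and macrophages 13 were measured and 11 tested. With RAS blockade 10 of the 11 were negative, Cd14 among them, against 43.3% of all genes, with a median of -0.79. With ACEI 7 were negative (63.6%, against 55.6% of all genes), with a median of -0.44. With ARB 9 were negative (81.8%, against 41.6% of all genes), with a median of -1.41. C1qb was at -1.30 and RT1-Da at -1.08 with RAS blockade, and their other tested probe sets were at -0.53 and 0.19. The microglia and macrophage markers summed to 49103 and 40214 on the controls, 24317 and 48243 on ACEI, and 16680 and 18032 on ARB. No measured marker of either list was at 0 on any array (0 markers). All 4 tested markers of T cells and mast cells were positive, against 1808 of all 3186 genes, with a median of 0.31. In limma 0 of them had an unadjusted p under 0.05. Without control 2 Cd4 was at -1.05, and the other markers stayed positive. Cd5 had 280 and 192 on the ARB arrays, below the 90th percentile of the bacterial controls on each. All 4 tested erythroid markers were negative (median -0.85), against 43.3% of all genes. The heme synthesis enzyme Alas2 was at -2.12, Hbb-b1 at -1.29, Slc4a1 at -0.40 and Hbb at -0.17. Without control 2 these were at -2.19, -0.33, -0.68 and 0.85 in that order. Other probe sets of Slc4a1 were at -0.78 and, below the filter, at 0.71. Of 7 tested markers of pericytes and smooth muscle 5 were negative (median -0.44), with the smooth muscle actin Acta2 at -1.31 and the actin-binding protein Tagln at -1.04. Actg2 was at -1.15, and Anpep went the other way at 0.91. Other tested probe sets were at 0.05 and 0.03 for Acta2, at -0.80 for Tagln and at -1.08 for Anpep. Of 5 tested astrocyte markers 1 was negative with RAS blockade, with a median of 0.07, but the drugs differed. With ACEI 0 of the 5 were negative (median 0.64), and with ARB 4 were (median -0.56). For ARB against ACEI the median was -1.33. There 4 were lower at an unadjusted p under 0.05 in limma, against 5.52% of all genes, with 0 higher and 0 past the adjustment. Neuronal marker sums were 2097 and 3394 on the controls and between 5086 and 7774 on the treated arrays. The 7 tested neuronal markers were all positive with RAS blockade (median 1.02). Among them 3 were higher at an unadjusted p under 0.05 in limma, against 2.79% of all genes, and 0 passed the adjustment. Among the 13 tested endothelial markers 11 were lower with ARB than with ACEI (84.6%, against 41.8% of all genes), with a median of -0.94. In bulk RNA, fewer cells of a type and less RNA per cell cannot be told apart, and the part of the cell makeup in the members' values was not tested.

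The genes whose pattern lay nearest to that of Il1b were sought among the 3185 other genes tested. The measure was the root mean square distance between log2 values centred on their own mean over the 6 arrays, taken from M98820_at. The nearest were Ybx3, a cold shock domain protein, at a distance of 0.32, the matrix calcification inhibitor Mgp at 0.34, Gch1, the first enzyme of tetrahydrobiopterin synthesis, at 0.34, the glutamate transporter Slc1a1 at 0.35, and Rph3al, an effector of Rab GTPases in secretion, at 0.37. Mgp had 11240.1 and 38058 on the controls, 5795 and 7605 on ACEI, and 8888 and 7992 on ARB. Of the other tested members Il1a ranked 100 with a distance of 0.70, Nfkbia 937, Il1r2 1105 and Tnf 3001. All 6 points of a gene share the arrays' depth and scaling, and the distances are a description with no test.

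**Figure D5:**
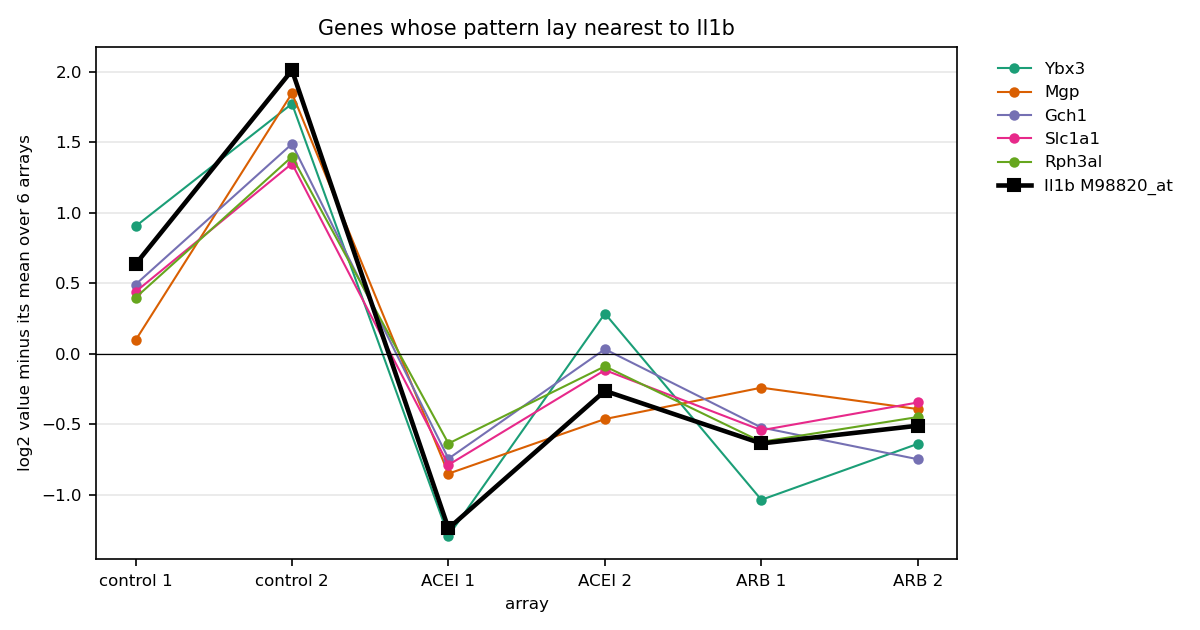
Log2 values of Il1b M98820_at and of the 5 nearest genes, each minus its mean over the 6 arrays, with lines only joining the points of a gene. All 6 genes stand highest on control 2 and have their second-highest value on control 1.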

How the data were processed

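RNA of SHRSP brain capillaries was hybridised to 6 Affymetrix rat arrays, 2 per group. The authors deposited 1 intensity per probe set and array, on a linear scale. Software, background correction and scaling: not given in the sources used here. After leaving out the highest and lowest 2% of values, array means lay between 997.7 and 1002, and no further scaling was applied. Genes came from the array's annotation table: 7018 probe sets carried 1 symbol, 308 several and 1473 none, and 6994 of those with 1 symbol matched a gene identifier of the reference table (0 symbols changed).

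The 59 control probe sets were left out. The tests used log2 of the intensity plus 90, which is the median of values above 0 (358.3) divided by 4 and rounded. The 40% of the remaining 8740 probe sets with the lowest mean log2 value were left out, and 5244 were tested with limma 3.58.1 in R 4.3.3 (1 mean per group, two-sided p-values with 5.49 prior and 3 residual degrees of freedom, Benjamini-Hochberg at 0.05). Members below the filter were described from a fit of all 8740. The remaining steps ran in Python 3.11.15 with matplotlib 3.10.9 and pandas 2.3.3. The test was checked on simulated data. With 2 arrays per group, the number of arrays limits the precision.

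Named were all member probe sets, up to 4 genes with the largest RAS blockade difference per pathway list, and the 5 genes nearest to Il1b. The members and lists were chosen with earlier results of these data known. Alternatives were 2 offsets, 2 filters, cyclic loess or quantile normalization, a block for the run day or the replicate number, array weights, a fit restricted to both groups of a comparison, and each array left out in turn. The fit of members below the filter was chosen after seeing which they were.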

Additional observations from a re-analysis of the deposited data

Results flagged for a closer look

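For the Il1r1 probe set U14010_at both ACEI arrays (10.8 and 5.3) lay below both controls (21.2 and 11.2) and both ARB arrays (73.6 and 119) above them. ARB minus ACEI was 0.92 on the log2 scale. All 6 values lay at or below the 90th percentile of the bacterial control probe sets of their array. Whether the drugs' effects differ was not tested under the filter, which left this probe set out. In limma with all probe sets fitted, the adjusted p of ARB versus ACEI was 0.179. The other Il1r1 probe sets did not show ACEI below both controls, and their ARB minus ACEI values were 1.07, 0.66 and 1.57.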

How the results depend on the processing

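In limma the number of probe sets past an adjusted p of 0.05, 0 in each comparison, became 3 (RAS blockade), 3 (ACEI), 4 (ARB) and 4 (ARB versus ACEI) with the offset at the median. It became 1 for RAS blockade after quantile and 1 after cyclic loess normalization, and 518 with array weights and 305 with only the groups compared for ARB versus ACEI. Leaving out each array gave 0 to 60 for RAS blockade, 0 to 261 for ACEI, 0 to 46 for ARB and 0 to 305 for ARB versus ACEI. Without control 1 or control 2 the lone control is assumed to vary like the other groups, so those calls are not relied on. Control 1 left out gave the 60 and the 261, control 2 left out gave the 46, and either gave the 305. In limma without control 1, ACEI versus control passed for Tnf (2.31, adjusted p = 0.0425), Il1b M98820_at (-2.76, adjusted p = 0.0425) and Nfkbia X63594cds_at (3.41, adjusted p = 0.0231). Without control 2, ARB versus control passed for Nfkbia X63594cds_at (-3.82, adjusted p = 0.0453). The cause was not tested.

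With the replicate number as a block, the counts were 3, 2, 4 and 1 in that order. The replicate number coincided with the recorded fluidics protocol, so this block cannot be told apart from a block for that protocol. The labels do not state whether same-numbered samples were paired. The deviations of same-numbered arrays correlated by 0.045, -0.015 and -0.0037 between control and ACEI, control and ARB, and ACEI and ARB. With 1 difference between arrays per group, these correlations cannot settle how the samples were collected.

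Of 563 values of the 9 tested member probe sets under 16 alternatives, 533 kept their sign and side of the threshold, 8 passed it (7 of them without an array or with only the groups compared, 1 with array weights), and 22 changed sign. Tnf with RAS blockade was at -0.16 with the offset at the median, -0.26 after quantile and -0.29 after cyclic loess normalization. With the run day as a block Nfkbia X63594cds_at was at 0.26 with RAS blockade, Tnf at 0.013 with ARB, and Il1b M98820_at at -0.41 for ARB versus ACEI. Il1r2 with ARB was at -0.12 with quantile and at -0.073 with cyclic loess normalization. Leaving out each array moved Il1b E01884cds_s_at from -2.05 to 0.19 with RAS blockade, -1.87 to 0.37 with ACEI, -2.23 to 0.0043 with ARB and -0.78 to 0.052 for ARB versus ACEI. Tnf ran from -1.59 to 1.61, -0.89 to 2.31 and -2.29 to 0.91 in the 3 comparisons with control. Nfkbia X63594cds_at ran from -2.45 to 2.03, -1.07 to 3.41 and -3.82 to 0.66. Il1r2 ran from -0.41 to 0.071 with RAS blockade, and Il1b M98820_at from -0.31 to 0.67 for ARB versus ACEI. The median difference of all tested probe sets, 0.13 with RAS blockade and 0.18 with ARB, was -0.03 and -0.07 after quantile normalization.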
